A study of Mus musculus with 8 samples.

Results

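The translation initiation and elongation factors are the proteins that bring the ribosome to the start codon of an mRNA and then move it along. They were taken here as every mouse gene on the array whose symbol begins with Eif1 to Eif6 or with Eef1 or Eef2, leaving out the eIF2α kinases. This gave 65 of the 21612 genes named on the array, measured by 93 probes. Of these 65 genes, 62 were tested, and the signals of Eef1a2, Eif2s3y and Eif4e1b did not rise well above background on even 1 array. Gene expression was measured in AML12, a hepatocyte line derived from the liver of a mouse transgenic for human TGF-α, on 8 single-color arrays. The 4 control samples were cultured without irisin, and the 4 irisin samples received 0.5 µg/ml irisin, the peptide cleaved from Fndc5, for 24 h. Both groups were grown in DMEM F-12 with 10% fetal bovine serum, and all samples came from the same cell line with no other treatment in the labels. The labels do not say that the replicates were separate cultures, so the p-values measure the spread between these samples, which may be technical.

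Translation begins when eIF2 carries the initiator tRNA to the small ribosomal subunit, where eIF1, eIF1A, eIF3 and eIF5 help it to find the start codon. The mRNA arrives through its cap, which is bound by eIF4E and held by the scaffold eIF4G with the helicase eIF4A, and this step is restrained by the 4E-binding proteins. eIF2B reloads eIF2 with GTP, eEF1A brings each further tRNA, and eEF2 moves the ribosome by a codon. In liver, these steps are known to respond to insulin and amino acids through mTORC1 and to stress through phosphorylation of eIF2α, changes of the proteins that an mRNA array does not measure.

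Several genes of this family are known targets of MYC, which binds the sequence CACGTG together with MAX. On these arrays the mRNA of Myc was 2.48 ± 0.12 (SD, n = 4) in control and 3.12 ± 0.03 (SD, n = 4) in irisin cells, and it rose by 0.63 on the log2 scale (SE 0.083, limma adjusted p = 0.00036). Unless another scale is named, a value is a log2 signal from which the 75th percentile of its array was subtracted. The activity of the MYC protein was not measured. From genes responsive to irisin in AML12 cells, the paper's upstream regulator analysis predicted MYC to be inhibited. Promoter stretches are shown for 9 of the 14 members that hold this motif. Those of Eif1b, Eif3a, Eif5a, Eef1akmt4 and Eef1aknmt are not shown, nor are second copies in Eif4g1 and Eif5a2. RefSeq promoter windows of GRCm38.p6, 250 bases before to 50 bases after the start of the transcript, were matched for 50 of the 65 genes. The motif, which reads the same on both strands, was in a window of 14 of these 50 genes (28.0%), of 1260 of 11382 tested genes (11.1%) and of 1583 of 17089 genes named on the array (9.26%). The stretches below are 30 bases long, written 5′ to 3′ on the strand of the gene, with the motif in capitals and its position counted from the first base of the transcript as 1.

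Eif4e, the cap-binding protein, chr3:138527192-138527221, + strand, motif at -64 to -59: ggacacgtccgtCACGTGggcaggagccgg
Eif4e, upstream copy, chr3:138527028-138527057, + strand, motif at -228 to -223: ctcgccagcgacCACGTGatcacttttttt
Eif4g1, the cap scaffold, chr16:20672661-20672690, + strand, motif at -54 to -49: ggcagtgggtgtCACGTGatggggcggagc
Eif4a1, the helicase, chr11:69672595-69672624, - strand, motif at -189 to -184: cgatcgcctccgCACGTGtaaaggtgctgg
Eif4h, a helicase cofactor, chr5:134639488-134639517, - strand, motif at -96 to -91: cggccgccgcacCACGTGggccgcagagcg
Eif3f, an eIF3 subunit, chr7:108934335-108934364, + strand, motif at -68 to -63: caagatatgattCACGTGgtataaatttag
Eif3k, an eIF3 subunit, chr7:28981915-28981944, - strand, motif at -44 to -39: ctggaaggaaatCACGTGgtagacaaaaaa
Eif5a2, an eIF5A protein, chr3:28781148-28781177, + strand, motif at -117 to -112: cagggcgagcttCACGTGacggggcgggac
Eef2, the translocase, chr10:81176576-81176605, + strand, motif at -43 to -38: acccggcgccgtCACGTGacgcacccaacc
Eef2k, the eEF2 kinase, chr7:120842788-120842817, + strand, motif at -31 to -26: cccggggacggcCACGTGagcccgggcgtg

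The 14 genes with the motif had a median change of -0.10 (range -0.40 to 0.22), and 10 of the 14 were lower with irisin. The 34 tested genes whose windows lacked it had the same median to 2 decimals, -0.10 (range -0.42 to 0.62), and 24 of the 34 were lower. No gene with the motif passed the threshold in either direction, beside 10.7% of all tested genes. Eif4a1 and Eif5a2 were the pair with an adjusted p under 0.05, both lower. By the same rule 2 of the 34 without the motif were lower, beside 17.9% of all tested genes. A run of at least 8 pyrimidines (C or T, on the strand of the gene) within 50 bases of the start was in the windows of 24 of the 50 genes (48.0%) and of 37.2% of tested genes. The 22 tested genes with such a run had a median change of -0.07, and the 26 without one had a median of -0.12. These matches describe the letters of the windows, and whether any protein binds there was not tested.

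Most of the 62 genes differed little between the groups. The median of their log2 changes was -0.10, beside -0.06 for all 14312 tested genes. With irisin 44 members were lower and 18 higher, beside 9160 lower and 5152 higher of all tested genes. The changes ran from -0.42 to 0.62, and 49 of the 62 were under 0.25 in size. For 52 genes the 95% interval lay within 1.5-fold in both directions. The threshold of a 1.5-fold change with an adjusted p under 0.05 (limma, Benjamini-Hochberg over 24093 probes) was passed by 1 gene that rose, Eif2a, and by 0 that fell. Of all tested genes, 10.7% passed the threshold, 0.531% being higher and 10.2% lower. With the adjusted p alone, 2 members were higher and 5 lower, beside 2.65% and 17.9% of all tested genes. At an unadjusted p under 0.05 there were 3 higher and 12 lower, beside 5.94% and 23.6%. The groups did not overlap in 6 members, 1 higher and 5 lower, beside 4.16% and 19.7% of all genes. The shares of members that were lower by these rules were below those of all tested genes. Counted from the dimmest, deciles 1, 2 and 3 of signal had 48.6%, 33.5% and 14.7% of their genes past the threshold. These deciles held 1, 1 and 0 members, while the brightest decile held 26 and had 1.12% of its genes past it. The shares above therefore do not compare genes of like signal. With single arrays left out, the adjusted p stayed under 0.05 in 8 of 8 cases for Eef1a1, Eif4a1 and Eef1e1, in 2 of 8 for Eef1b2, and in 1 of 8 for Eif3h and for Eif5a2. The counts by adjusted p alone moved most without irisin replicate 2, to 5 members higher and 12 lower, beside 5.53% and 22.1% of all tested genes in the same fit. The 3 genes added on the higher side were Eif3a, Eif4g2 and Eif2s3x. On the lower side Eif5a2 was lost, and Eif4g1, Eif4h, Eif4ebp2, Eef1d and the eIF3 subunits Eif3c, Eif3d, Eif3k and Eif3l were added. Without each of the other 7 arrays, 1 to 2 members were higher and 2 to 4 lower.

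**Figure D1:**
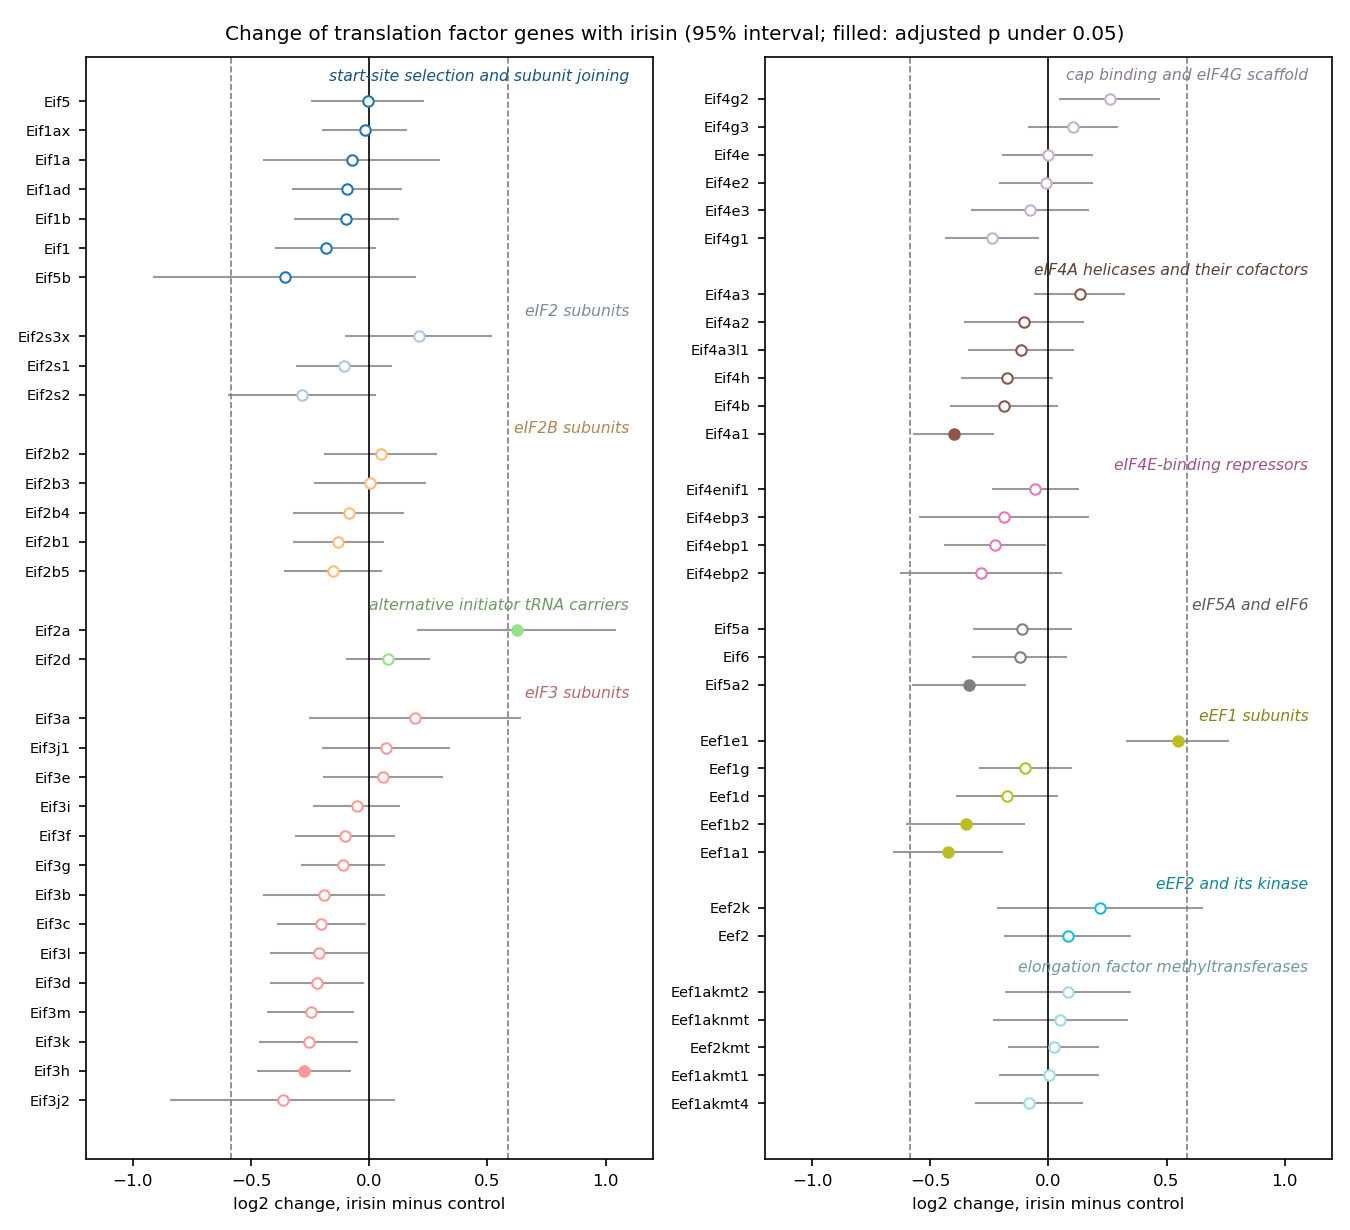
Each point is the log2 change (irisin minus control, 4 arrays each) of a tested translation factor gene, grouped by role, with its 95% interval from limma. Filled points have an adjusted p under 0.05, dashed lines mark 1.5-fold, and Eif2a, at 0.62, is the only point both filled and past a dashed line.

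These values rest on bright probes. The members' median signal lay at the 85.7th percentile of tested genes, and 26 of the 62 were in the brightest decile, where percentiles describe the probes and not the amounts of the transcripts. All genes of that decile had a median change of -0.15, and 1.12% of them passed the threshold. The 26 members there had a median of -0.18, and 23 of them were lower, beside 1273 of the 1432 genes of the decile. Adjusted p was under 0.05 for 4 of the 26, all lower, beside 273 of the 1432 genes (19.1%). The other 36 members had a median of -0.03, with 15 higher and 21 lower. Under quantile normalization the median of all 62 was 0.04 and that of the brightest 26 was 0.06, so the direction of the bright members turned with the scaling.

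**Figure D2:**
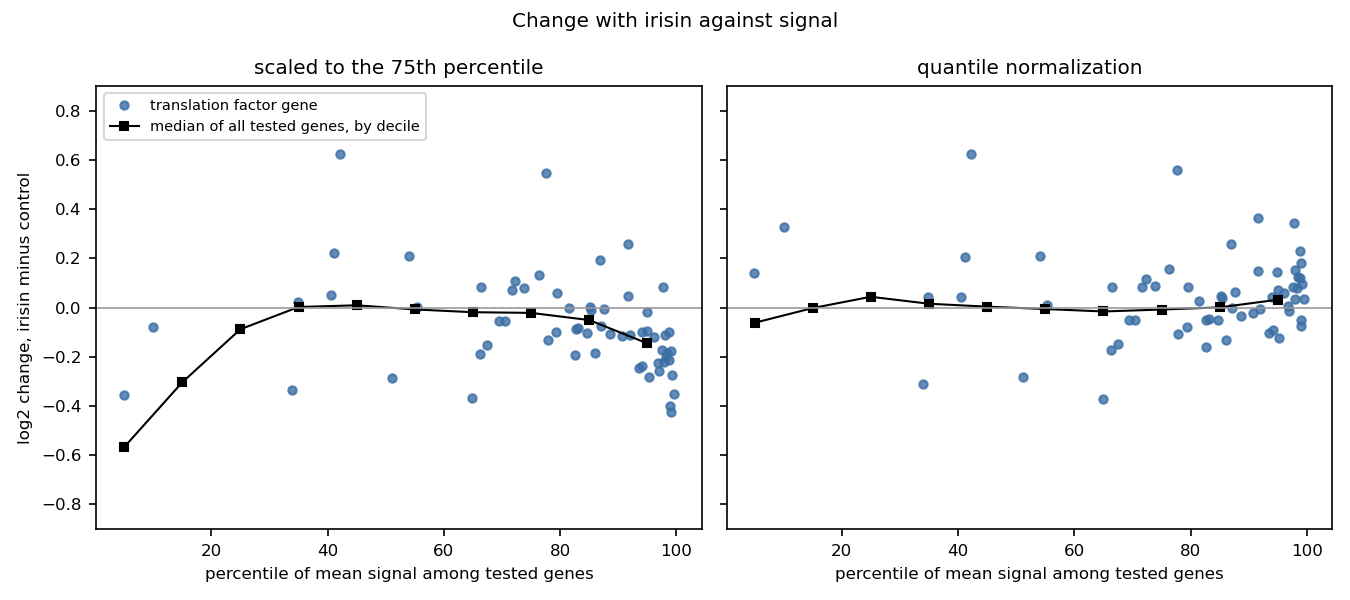
The log2 change of each of the 62 genes is plotted against the percentile of its mean signal, with the median of all tested genes in each decile (squares), after scaling to the 75th percentile (left) and after quantile normalization (right). On the left the squares are lowest in the dimmest decile, at -0.57, and rise to near 0 in the middle. They fall again to -0.15 in the brightest decile, where most members lie below 0. On the right the squares of the dimmest and brightest deciles are at -0.06 and 0.03.

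Eif2a encodes a protein that can bring the initiator tRNA to the ribosome without eIF2, and it is not the eIF2α subunit, which is Eif2s1. Its signals were -1.30, -1.14, -1.44 and -1.70 on the control arrays and -0.64, -1.33, -0.38 and -0.73 on the irisin arrays. Irisin replicate 2 lay among the controls, and the other 3 irisin samples were above all of them. The change was 0.62 (SE 0.19, 95% interval 0.20 to 1.05, limma adjusted p = 0.035), a 1.54-fold rise, with an exact two-sided permutation p of 0.0857 over 70 assignments of the arrays. Without irisin replicate 2 it was 0.81 (adjusted p = 0.0023). With each of the 8 arrays left out in turn it ranged from 0.49 to 0.81, and it was past the threshold without control 2 or irisin 2 and not past it without each of the other 6. It was not past it with quantile normalization (0.62, adjusted p = 0.052), cyclic loess (0.63, adjusted p = 0.057), normexp (0.46, adjusted p = 0.012) or the methods' test (adjusted p = 0.12). Eif2d, the other factor of this kind, had a change of 0.08 (adjusted p = 0.56).

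Among the eEF1 genes the directions were mixed. Eef1e1, which despite its name encodes a scaffold protein of the complex of aminoacyl-tRNA synthetases, was chosen for description after its values were seen. Its signals were 2.26, 2.11 and 2.04 on control arrays 1 to 3, the spot of control 4 being marked as an outlier, and 2.55, 2.69, 2.74 and 2.76 on the irisin arrays. All irisin values were above all control values. The change was 0.55 (SE 0.097, limma adjusted p = 0.0025), a 1.46-fold difference and so under the threshold, with an exact two-sided permutation p of 0.0286, the smallest that 35 assignments allow. It lay between 0.54 and 0.61 with normexp, quantile normalization, cyclic loess and scaling to the median of detected probes, with adjusted p at most 0.00495, and cyclic loess put it past the threshold. Without control 1 (0.61) or irisin 1 (0.59) Eef1e1 was past it and Eif2a was not. Spike-in scaling (1.13 for Eef1e1) and no scaling (1.32 for Eef1e1) put both past it.

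Eef1a1, the main carrier of aminoacyl-tRNA, gave 6.83, 6.69, 6.51 and 6.64 in control and 6.19, 6.48, 6.20 and 6.11 in irisin samples. All irisin values were below all control values, irisin 2 being the closest. The change was -0.42 (SE 0.11, limma adjusted p = 0.013), or 0.745-fold. A second, dimmer probe of Eef1a1 fell past the threshold, by 0.61 on the log2 scale (SE 0.092, adjusted p = 0.00072), again with no overlap. The change of the brighter probe was -0.30 with normexp (adjusted p = 0.018), -0.08 with quantile normalization (adjusted p = 0.53) and -0.20 with cyclic loess (adjusted p = 0.13). It turned to 0.14 with spike-in scaling (adjusted p = 0.57). Processed copies of Eef1a1 are common in the genome, and whether these probes also bind their transcripts was not tested.

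Eef1b2, a subunit that exchanges the nucleotide on eEF1A, was 7.31, 7.03, 6.90 and 7.04 in control and 6.70, 6.95, 6.64 and 6.58 in irisin samples. Irisin 2 overlapped the controls, and the change was -0.35 (SE 0.11, adjusted p = 0.047). It was -0.21 with normexp (adjusted p = 0.088), 0.04 with quantile normalization and -0.10 with cyclic loess. Eef1d and Eef1g, the partners in the same exchange complex, had changes of -0.17 (adjusted p = 0.24) and -0.10 (adjusted p = 0.49).

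**Figure D3:**
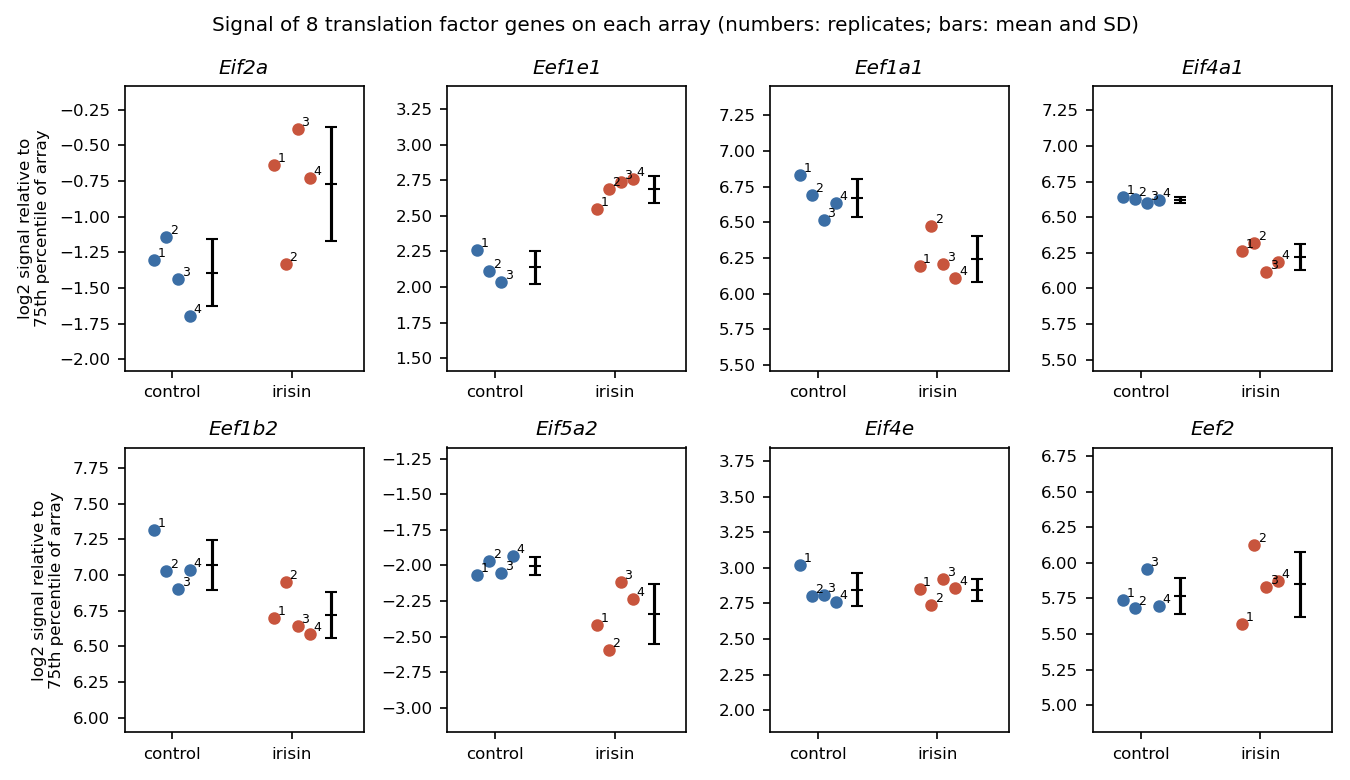
The log2 signal, less the array's 75th percentile, of 8 translation factor genes, with a point for each array (numbers are replicates) and the mean with SD (n = 4 per group, n = 3 for Eef1e1 controls). All panels span 2 log2 units, and the groups separate for Eef1e1, Eef1a1, Eif4a1 and Eif5a2 but overlap for Eif2a, Eef1b2, Eif4e and Eef2.

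For the translocase the arrays gave no call. Eef2 was 5.74, 5.68, 5.95 and 5.70 in control and 5.57, 6.13, 5.83 and 5.87 in irisin samples, a change of 0.08 (95% interval -0.19 to 0.35). It was -0.01 without irisin 2 and 0.17 without irisin 1, and 0.34 with quantile normalization (adjusted p = 0.033). Eef2k, the kinase that inactivates eEF2, was -1.54, -1.39, -1.13 and -1.14 in control and -1.60, -0.55, -0.98 and -1.19 in irisin samples. Irisin 2 was the highest sample for both genes, and the change of Eef2k was 0.22 (95% interval -0.22 to 0.65, adjusted p = 0.49). With single arrays left out, Eef2k ranged from 0.04 without irisin 2 to 0.39 without irisin 1. The 5 methyltransferases that modify eEF1A or eEF2 had a median change of 0.02 (range -0.08 to 0.08), and their lowest adjusted p was 0.64.

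The cap-binding complex was split by member. The helicase Eif4a1 gave 6.64, 6.63, 6.60 and 6.62 in control and 6.27, 6.32, 6.11 and 6.18 in irisin samples. The control samples differed by less than 0.05 from each other and every irisin sample was below them. The change was -0.40 (SE 0.078, limma adjusted p = 0.0031), or 0.757-fold, with an exact two-sided permutation p of 0.0286, the smallest that 70 assignments allow. It was -0.36 with normexp (adjusted p = 0.0016) and -0.05 with quantile normalization (adjusted p = 0.65). It was -0.18 with cyclic loess (adjusted p = 0.11) and 0.17 with spike-in scaling (adjusted p = 0.50). Its paralog Eif4a2 had a change of -0.10 by its brighter probe and 0.33 by its dimmer one (adjusted p = 0.055), and Eif4a3, the helicase of the exon junction complex, a change of 0.13 (adjusted p = 0.33).

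Eif4e, the cap-binding subunit, showed almost no difference, with 3.02, 2.80, 2.81 and 2.76 in control and 2.85, 2.74, 2.92 and 2.86 in irisin samples. Its 95% interval was -0.20 to 0.19. The scaffold Eif4g1 was 4.74, 4.85, 4.93 and 4.81 in control and 4.56, 4.78, 4.48 and 4.55 in irisin samples, with a change of -0.24 (adjusted p = 0.084). Eif4g2, a scaffold that lacks the eIF4E site, was 4.11, 4.19, 4.12 and 3.97 in control and 4.44, 4.13, 4.46 and 4.38 in irisin samples. In Eif4g1 and Eif4g2 alike, irisin 2 was the sample that lay within the control range, and Eif4g2 had a change of 0.26 (adjusted p = 0.078). Without irisin 2 the changes were -0.30 (adjusted p = 0.015) and 0.33 (adjusted p = 0.012).

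The 3 tested probes of Eif4b, a cofactor of the helicase, did not go the same way. The brightest had a change of -0.19 (adjusted p = 0.24) and the dimmest one of -0.22 (adjusted p = 0.34), while the probe between them gave 0.77, 0.86, 0.87 and 0.69 in control and 1.09, 1.37, 1.28 and 1.15 in irisin samples. That probe was higher by 0.42 (SE 0.090, adjusted p = 0.0052), under 1.5-fold and without overlap. Of 22 genes with several tested probes, 14 had probes of the same sign and 8 of opposite sign.

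All 4 repressors of eIF4E were on the lower side, as were 9160 of all 14312 tested genes. The median of the 4 was -0.21, and 0 of them had an adjusted p under 0.05. With quantile normalization the median was -0.11. Eif4ebp1, the best known target of mTORC1 among them, was 5.46, 5.42, 5.68 and 5.56 in control and 5.13, 5.42, 5.26 and 5.40 in irisin samples. Its change was -0.23 (95% interval -0.44 to -0.01, adjusted p = 0.13), and irisin 2 and control 2 were level. It was 0.01 with quantile normalization. Eif4ebp2, Eif4ebp3 and Eif4enif1 had changes of -0.29, -0.19 and -0.06, and without irisin 2 Eif4ebp2 was at -0.42 (adjusted p = 0.030) and Eif4ebp3 at -0.03.

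eIF3 is a complex that binds the small ribosomal subunit. The 14 genes of its subunits, with both copies Eif3j1 and Eif3j2 counted, had a median change of -0.20, with 11 lower and 3 higher. By the brightest probes, Eif3h was the member with an adjusted p under 0.05. It gave 6.79, 6.71, 6.75 and 6.66 in control and 6.38, 6.64, 6.33 and 6.47 in irisin samples. The groups did not overlap, although irisin 2 and control 4 differed by only 0.02, and the change was -0.28 (SE 0.089, adjusted p = 0.046). A second probe of Eif3h gave -0.07 (adjusted p = 0.63). The brightest probe of Eif3k gave -0.26 (adjusted p = 0.075), and its dimmer ones -0.33 (adjusted p = 0.029, without overlap) and 0.08. The probes of Eif3m gave -0.25 and 0.05, and those of Eif3c -0.20 and -0.07. With quantile normalization the median of the 14 genes was 0.06 and Eif3h was at 0.09, and with cyclic loess they were at -0.01 and -0.05. With normexp they were at -0.05 and -0.22. Eif3a, the largest subunit, was 3.44, 3.49, 3.31 and 3.28 in control and 3.75, 2.88, 4.00 and 3.67 in irisin samples. Irisin 2 was the lowest of all 8 and the other irisin samples the highest, with a change of 0.19 (adjusted p = 0.56). Without irisin 2 the change of Eif3a was 0.43 (adjusted p = 0.011), and without irisin 3 it was 0.05. Eif3j2 had a change of -0.37 (SE 0.21, adjusted p = 0.27), but its control 3, at 0.76, was the lowest of all 8 samples, and without that array it fell past the threshold, by 0.60. Its near-identical copy Eif3j1 had a change of 0.07, and the copies may share probe sequence.

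The tRNA carrier eIF2 and its exchange factor gave no calls. Eif2s1, the subunit phosphorylated under stress, was 3.94, 3.82, 3.71 and 3.66 in control and 3.69, 3.54, 3.76 and 3.72 in irisin samples, a change of -0.11 (95% interval -0.31 to 0.10). Eif2s2 and Eif2s3x had changes of -0.28 (adjusted p = 0.19) and 0.21 (adjusted p = 0.34), which were -0.18 (adjusted p = 0.32) and 0.34 (adjusted p = 0.041) without irisin 2, while Eif2s3y, the copy on the Y chromosome, was not well above background. The 5 subunits of eIF2B lay between -0.15 and 0.05, the lowest being the catalytic subunit Eif2b5 (adjusted p = 0.30).

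The 7 factors of start-site selection and subunit joining were all on the lower side by their brightest probes, as were 9160 of all 14312 tested genes. The median of the 7 was -0.09, and 0 of them had an adjusted p under 0.05. Eif1, which guards the choice of the start codon, was 6.34, 6.17, 6.24 and 6.15 in control and 5.93, 6.24, 5.91 and 6.10 in irisin samples, a change of -0.18 (adjusted p = 0.21). A second probe of Eif1 was lower by -0.39 without overlap (adjusted p = 0.0049). Eif5, which triggers the GTPase of eIF2, had a change of -0.01 (95% interval -0.25 to 0.23). Dimmer probes of Eif5 and Eif1ad were on the higher side, at 0.26 (adjusted p = 0.25) and 0.09 (adjusted p = 0.63). With quantile normalization the median of the 7 was 0.07.

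Eif5a2, the less widely expressed of the hypusine-bearing eIF5A proteins, gave -2.07, -1.97, -2.05 and -1.93 in control and -2.42, -2.59, -2.12 and -2.23 in irisin samples. All irisin values were below the controls, and the change was -0.34 (SE 0.11, adjusted p = 0.046). It kept its sign with normexp (-0.34, adjusted p = 0.0033), quantile normalization (-0.31, adjusted p = 0.059) and cyclic loess (-0.27, adjusted p = 0.11). It was 0.23 with spike-in scaling. Eif5a itself had a change of -0.11 (adjusted p = 0.46), and Eif6, which keeps the large subunit from joining too early, one of -0.12 (adjusted p = 0.40).

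How far the direction of the family depends on scaling was seen across the alternatives. The 75th percentile of the signal was 372 to 534 on control arrays and 682 to 850 on irisin arrays, and without scaling all 62 genes were above 0, with 40 past the threshold, beside 66.8% of all tested genes. With spike-in scaling all 62 were also above 0, with 16 past it, beside 32% of all tested genes, whose median was 0.51. The shares of members were thus near or below those of all genes. Set against all tested genes, the members' median lay 0.04 below under the 75th percentile, 0.04 above under quantile normalization and 0.09 above under normexp. A change common to most genes cannot be told apart from a difference in labeling or scanning in these files.

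**Figure D4:**
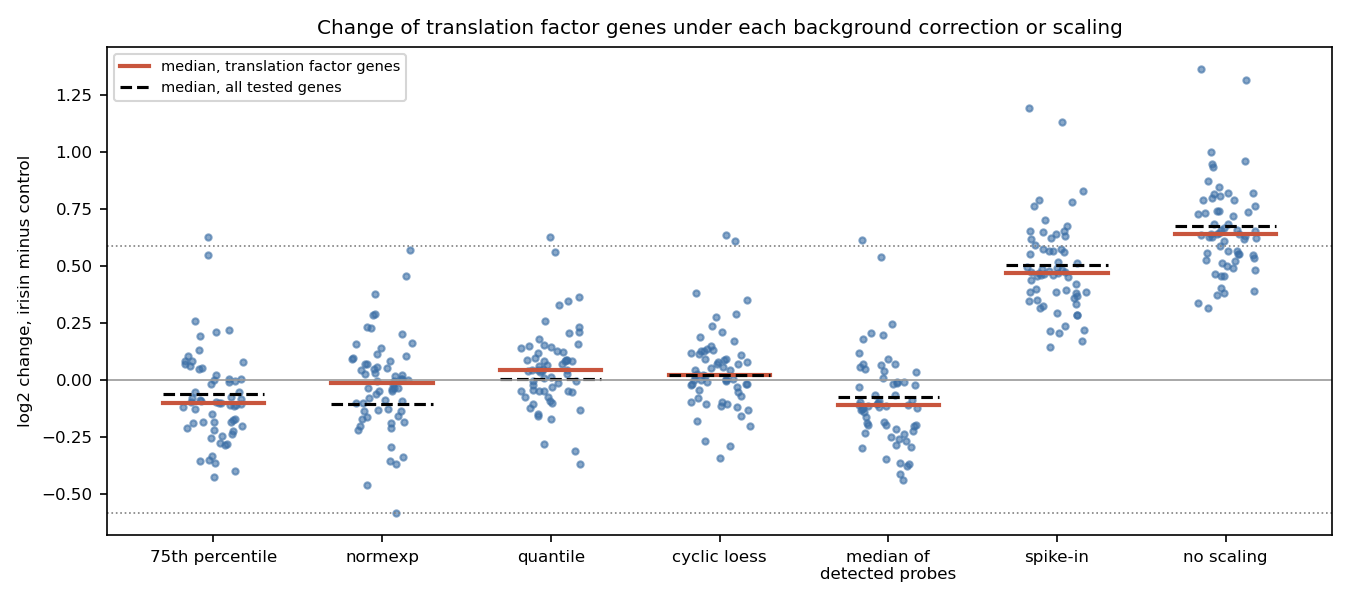
Points are the log2 changes of the tested translation factor genes under 7 ways of background correction or scaling, with the median of the members (solid) and of all tested genes (dashed), and dotted lines at 1.5-fold. The solid line stays within 0.10 of the dashed line in each column, while both lie near 0.5 with spike-in scaling and above 0.6 without scaling.

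Other genes of translation were set beside the family, from lists written from general knowledge. Of 80 tested cytosolic ribosomal proteins, all were lower with irisin, beside 1273 of the 1432 genes of the brightest decile. The median of the 80 was -0.40, beside -0.15 for that decile. Adjusted p was under 0.05 for 59 of the 80, beside 17.9% of all tested genes and 19.1% of the brightest decile that were lower. The 5 that fell past the threshold (Rpl13a, Rpl4, Rpl7, Rps10 and Rps21) stood beside 10.2% of all tested genes. In the brightest decile 1.12% of genes passed it in either direction. That median was -0.32 with normexp, -0.16 with cyclic loess, -0.01 with quantile normalization and 0.17 with spike-in scaling. Of the 80 genes, 79 lay in the brightest decile. Among 20 cytosolic aminoacyl-tRNA synthetases the median was -0.07 and 1 passed the threshold, Dars, the aspartyl-tRNA synthetase. Dars gave -1.67, -1.84, -2.34 and -1.82 in control and -1.09, -1.30, -0.51 and -1.27 in irisin samples. It rose without overlap by 0.87 (SE 0.19, adjusted p = 0.0062). The 11 genes of termination and recycling, 10 mitochondrial factors and 11 poly(A)-binding proteins and partners held no gene past the threshold. The same was true of 11 genes around the eIF2α kinases and phosphatase, with Atf4, Ddit3, Trib3, Nck1 and Impact among them. It was also true of 10 genes around the kinases of the cap complex, with Rheb, Rptor and Rps6 among them. The medians of these lists lay between -0.12 and 0.00. The 9 hypusine and diphthamide enzymes had a median of -0.05 and the 5 genes of selenocysteine elongation a median of 0.15, also with no gene past the threshold. Some genes of these lists had an adjusted p under 0.05 but changed by less than 1.5-fold. Among them were Mknk1, a kinase of eIF4E (-0.48, adjusted p = 0.0045), Paip1 (-0.55, adjusted p = 0.024) and Secisbp2 (0.47, adjusted p = 0.0083). A dimmer probe of Mknk2 was at -0.59, and its brighter one at -0.27.

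Markers of cell type were examined on the same arrays. All 10 hepatocyte markers were well above background on all 8 arrays, as were 3 of 4 cholangiocyte markers, 2 of 4 macrophage, 2 of 3 endothelial and 1 of 4 stellate cell markers, with Cdh5, Des, Pdgfrb and Lrat above it on none. The summed signal of the hepatocyte markers was 144289 to 191685 in control and 233304 to 256443 in irisin samples before scaling. The 75th percentile of the arrays and the sum of the cholangiocyte markers were also higher on the irisin arrays before scaling. After scaling, the changes of the 10 hepatocyte markers ran from -0.64 (Asgr1) to 0.24 (Apob), with Hnf4a at -0.10 and Alb at 0.11. In bulk RNA, fewer cells of a type and less RNA per cell cannot be told apart. The control arrays lay on slide 1 and the irisin arrays on slide 2, each scanned together, so the treatment cannot be told apart from the slide or the scan. Irisin replicate 2 was the lowest or highest irisin sample for 53 of the 62 genes, against 9 to 33 for the other irisin arrays, and its part in the results was not tested beyond the values given without it. With that array left out, Eif2a was again the 1 member past the threshold, while the members with an adjusted p under 0.05 went from 2 higher and 5 lower to 5 higher and 12 lower.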

How the data were processed

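RNA of 8 AML12 samples was labeled with Cy3 by the authors from 500 ng of total RNA and hybridized to Agilent arrays. The authors deposited the signal intensity of each spot on a linear scale, made with Agilent Feature Extraction 12.0.3.1, which subtracts background, together with a value table of the same intensities. Neither is normalized between arrays. Marked spots, at most 0.463% of an array, were left out and spots of a probe averaged.

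The log2 of the signal minus the array's 75th percentile was tested with limma 3.58.1 in R 4.3.3 on 24093 probes well above background on all 4 arrays of a group. A gene was represented by its brightest probe over the 8 arrays. A gene was called at 1.5-fold and Benjamini-Hochberg adjusted p under 0.05. In simulated arrays of this comparison with 24093 probes, 86% of probes changed by 1 log2 unit were recovered. Smaller changes were not simulated, so recovery in the range of the members' changes (-0.42 to 0.62) is not known.

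The members, gene lists and alternatives were chosen with earlier results of these data known. Described genes are those called, the 5 largest changes each way among probes above background on all 8 arrays, and a leading member of each role. Other probes and genes were described after their values were seen. Normexp (offset 50) used the median spot signal, since the files hold no mean signal, without spots of non-uniform background. Probes were named by accession through RefSeq (GRCm38.p6). Probe sequences were not used here. Files were read with pandas 2.3.3 under Python 3.11.15, and plots were drawn with matplotlib 3.10.9. The number of arrays limits the precision.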

Additional observations from a re-analysis of the deposited data

Results flagged for a closer look

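The signal of Eif5a, a factor that helps the ribosome through difficult peptide bonds, was 4.145 in control replicate 4, apart from the other controls at 4.39 to 4.43. It was the 1 sample so placed among 42 groups of 4 arrays checked, and chance places a sample so in about 1 of 20 groups.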

How the results depend on the processing

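The counts, medians and described genes were recomputed under each alternative, and of 420 recomputed gene values 393 kept their side of the threshold, 10 lost it, 11 gained it and 6 reversed. The cause of the changes below was not tested. Of translation factor genes, 1 rose and 0 fell past the threshold as reported. The number that rose was 0 with normexp, quantile normalization, the methods' test (an analysis of variance) and a 2-fold threshold, 16 with spike-in scaling, 40 without scaling, and 2 (with 5 that fell) by adjusted p alone. Of partner genes, 1 rose and 5 fell as reported. The number that fell was 0 with normexp, quantile normalization, cyclic loess, spike-in scaling, no scaling and a 2-fold threshold, and 67 by adjusted p alone. The number that rose was 0 with normexp and a 2-fold threshold, 31 with spike-in scaling, 72 without scaling and 3 by adjusted p alone.

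Of all tested probes, 172 rose and 2816 fell as reported. The number that rose was 54 with normexp, 670 with quantile normalization, 699 with cyclic loess, 7510 with spike-in scaling, 14920 without scaling, 108 with the methods' test, 713 by adjusted p alone and 23 at 2-fold. The number that fell was 1021 with quantile normalization, 926 with cyclic loess, 372 with spike-in scaling, 162 without scaling, 12750 with no filter on dim probes, 5197 by adjusted p alone and 778 at 2-fold.

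The median change of translation factor genes was -0.10, and -0.0127 with normexp, 0.0429 with quantile normalization, 0.0186 with cyclic loess, 0.47 with spike-in scaling and 0.64 without scaling. Its distance from the median of all tested genes was -0.04, and 0.0933 with normexp, 0.0375 with quantile normalization and 0.0908 with no filter on dim probes. Without scaling, genes that were not called and had changes below 0 passed the threshold above 0, namely Eif2s1 (0.63), Eif2b5 (0.59), Eif4e (0.74), Eif5 (0.73), Eif5a (0.63) and Eif6 (0.62).

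With single arrays left out, the number of translation factor genes that rose ranged from 0 to 1 and that fell from 0 to 1. The gene that fell was Eif3j2, without control replicate 3. The number of partner genes that fell ranged from 2 (without control replicate 1) to 13 (without irisin replicate 2), the number of probes that rose from 102 (without irisin replicate 3) to 335 (without irisin replicate 2), and the members' median from -0.13 to -0.07. Same-numbered samples did not deviate together (correlations of -0.35 to 0.17), so the numbers were not taken to pair them. With the replicate block, 1 translation factor gene rose and 0 fell, and 173 probes rose and 2832 fell. Signal over background limits the dimmest members, such as Eif5b, whose 95% interval was -0.91 to 0.20.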
